A study of Mus musculus with 10 samples.

Results

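The genes described here are the 8 that encode the core of Polycomb repressive complex 2 (PRC2) and its close partners, together with Bmi1 of Polycomb repressive complex 1 (PRC1). They were chosen by symbol (Ezh1, Ezh2, Eed, Suz12, Jarid2, Rbbp4, Rbbp7 and Bmi1), and all 8 were found among the 39769 gene symbols of the table and were expressed highly enough to be tested. Poly-A RNA was sequenced in 10 mouse libraries, all from mice labelled Ptch+/-, which carry 1 intact copy of Ptch1, the receptor that restrains Sonic hedgehog signalling. The Ptch group holds 4 control libraries of cerebellum with no Cre or floxed allele in the label. Ptch 1 and Ptch 2 were 4 months old and Ptch 3 and Ptch 4 were 2 months old. The NKP group holds 3 libraries labelled medulloblastoma, with the genotype Nestin-Cre Kmt2dfl/+ Ptch+/-, all at 4 months. The AKP group holds 3 libraries labelled medulloblastoma, with the genotype AtohI-Cre Kmt2dfl/+ Ptch+/- (the labels' spelling), of which AKP 1 and AKP 2 were 2 months old and AKP 3 was 4 months old. Nestin drives Cre in neural progenitors and Atoh1 in granule neuron precursors, so in both tumour groups 1 of the 2 Kmt2d copies is deleted only where Cre was active, and the tissue keeps cells with both copies. Whether each library is its own animal is not stated in the labels, and the p-values here cover only library-to-library spread, which may be technical.

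PRC2 places methyl groups on lysine 27 of histone H3, a mark of silenced genes. Ezh2 and its paralog Ezh1 are the alternative catalytic subunits, Eed and Suz12 are needed for catalysis, Rbbp4 and Rbbp7 bind histones, and Jarid2 helps bring the complex to chromatin. Ezh2 is known from dividing precursors and Ezh1 from postmitotic cells such as neurons. Bmi1 belongs to PRC1, which ubiquitinates histone H2A, and is known in the cerebellum for the expansion of granule neuron precursors, the cells in which Sonic hedgehog medulloblastoma arises. Kmt2d methylates lysine 4 of histone H3, a mark of active enhancers.

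The libraries differed in ways their groups do not describe. Total counts ran from 12300430 to 19348991. Kmt2d stood at 52.6 to 68.4 CPM (counts scaled to a common library size) in the Ptch libraries, at 34.3 to 43.6 in AKP, and at 33.2, 46.9 and 58.0 in NKP libraries 1 to 3, so NKP 3 lay within the Ptch range. The gene's whole count was read, which need not show the loss of a floxed exon, and neither comparison with Ptch passed (edgeR's quasi-likelihood test, adjusted p = 0.307 in NKP and 0.0650 in AKP). Ptch1 ranged over 74.0 to 103.3 CPM in the Ptch libraries, over 85.6 to 110.6 in NKP and over 55.5 to 90.7 in AKP, with no comparison passing. In 4 of 10 libraries the sex label did not match Y-linked expression, which was close to absent only in Ptch 1 and Ptch 2 (summed level 0.385 and 0.465 CPM, against 55.0 to 99.2 elsewhere). Markers of mature granule neurons (7 genes, summed level 2547 to 4467 CPM) and of Purkinje cells (5 genes, 3408 to 6131) were high in every library, tumours included. The sum of 6 oligodendrocyte markers was 5844 to 7184 CPM in the Ptch group, 7383 to 11889 in NKP and 8566 to 10712 in AKP. That of 5 red blood cell markers was 710 to 814 CPM in Ptch, 780 to 2483 in NKP and 1740 to 2232 in AKP, and no marker of either list was at 0 throughout. In AKP against Ptch all 6 and all 5 lay wholly higher, and 1 of 6 and 3 of 5 passed higher in edgeR. Of all genes tested, 24.8% had no overlap between these groups in either direction and 3.38% passed higher. In NKP against Ptch 0 of either list passed, although all 6 and all 5 had an unadjusted p below 0.05, beside 17.0% of all genes tested. The summed level of 10 proliferation markers was 371 to 374 CPM in Ptch 1 and Ptch 2, 112 to 121 in Ptch 3 and Ptch 4, 190 to 241 in AKP 2 and AKP 3, 51.3 in NKP 3 and 7.46 to 8.01 in NKP 1, NKP 2 and AKP 1. Thus 3 libraries labelled medulloblastoma had the fewest transcripts of dividing cells of all 10.

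None of the 8 genes passed the test in any comparison (edgeR's quasi-likelihood test over 15617 genes, Benjamini-Hochberg adjusted p below 0.05). Of all genes tested, 0% passed in NKP against Ptch, 5.68% in AKP against Ptch and 0.00640%, a single gene, in AKP against NKP. At an unadjusted p below 0.05 the members numbered 1 of 8 (Jarid2) in NKP against Ptch, 2 of 8 (Jarid2 and Ezh1) in AKP against Ptch and 1 of 8 (Rbbp4) in AKP against NKP, beside 17.0%, 25.1% and 16.9% of all genes tested. DESeq2 called 0, 1 (Jarid2) and 0 of the 8, beside 2.60%, 12.4% and 1.47% of all genes tested. The log2 fold change was below 0 for 7 of 8 members in NKP against Ptch (median -0.19, beside 0.01 over all genes tested) and for 6 of 8 in AKP against Ptch (median -0.08, beside -0.02). It was above 0 for 5 of 8 in AKP against NKP (median 0.11, beside -0.01). The comparisons with Ptch share their 4 control libraries.

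**Figure D1:**
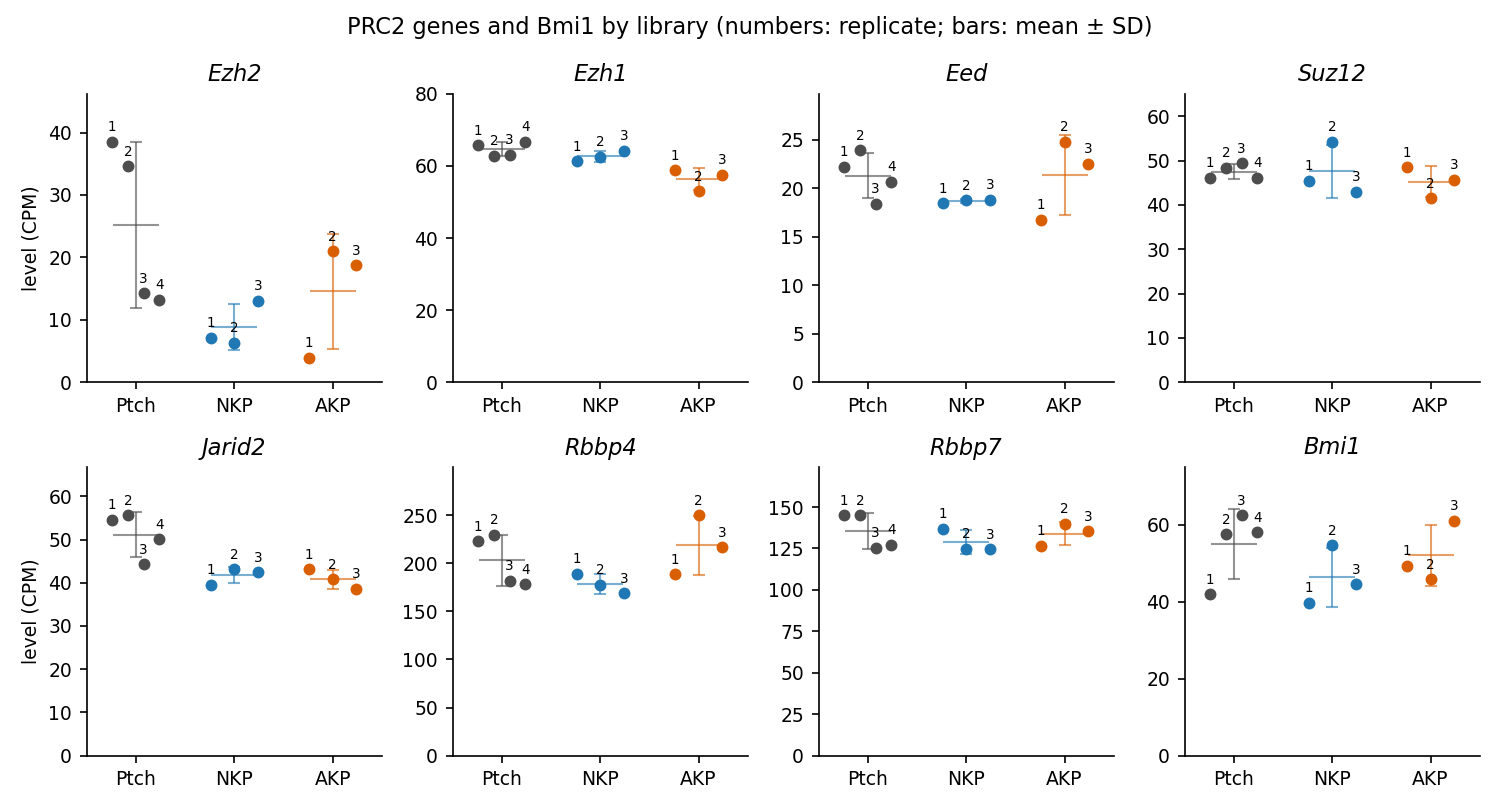
Level of each of the 8 genes in CPM (vertical axes, from 0) in each library, by group, with the replicate number above each point and bars for the mean and SD of a group. Ezh2 spreads from 3.95 to 38.6 CPM and splits each group, whereas the highest level of each other gene is at most 1.57 times its lowest.

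The members fell into 1 gene that varied widely and 7 that varied less than the median gene. Across the 10 libraries the highest level of Ezh2 was 9.77 times its lowest, with a coefficient of variation of 67.9%, and 3.05% of the genes tested varied more. The coefficient was 6.30% for Rbbp7, 6.71% for Ezh1, 7.61% for Suz12, 13.1% for Eed, 13.5% for Jarid2, 13.6% for Rbbp4 and 16.0% for Bmi1, all below the median of 16.6% over the genes tested. These are levels in whole tissue, where fewer cells of a type and less RNA per cell cannot be told apart.

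Set per kilobase of the longest coding transcript, so that genes can be compared with each other, the histone-binding subunits ranked first. Rbbp7 lay at 55.5 to 64.7 CPM per kilobase over the 10 libraries and Rbbp4 at 38.3 to 56.7, ranges that overlap. Then came Ezh1 (12.6 to 15.9), Bmi1 (11.1 to 17.4), Suz12 (9.50 to 12.4), Eed (8.11 to 12.01), Jarid2 (6.44 to 9.28) and Ezh2 (1.42 to 13.8), each overlapping its neighbours in this order. The single gap in the order was between Rbbp4 and Ezh1. This order and its gap depend on the length chosen. By the median length of coding transcripts Bmi1 (mean 83.6 CPM per kilobase) ranked 2 of 8, level with Rbbp4 (83.5), and Ezh1 ranked 6, while Rbbp7 stayed first and Ezh2 last. For Bmi1 that median is 617 bases, against 3594 for its longest coding transcript, so its rank of 2 rests on short annotated transcripts.

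Ezh2 (chromosome 6, 47530274 to 47595270, GRCm38.p6) encodes the catalytic subunit of dividing cells. Its level was 38.6, 34.6, 14.3 and 13.2 CPM in Ptch libraries 1 to 4, 7.11, 6.36 and 13.1 in NKP libraries 1 to 3, and 3.95, 21.0 and 18.7 in AKP libraries 1 to 3. Every NKP library lay below every Ptch library, but NKP 3 lay close below Ptch 4, and AKP spanned from below all NKP libraries to above the 2-month Ptch pair. Within Ptch, both 4-month libraries (34.6 and 38.6 CPM) lay far above both 2-month ones (13.2 and 14.3). That pair is also the one without Y-linked expression, so age and this property cannot be told apart within the group. The means were 25.2 ± 13.3 CPM (SD, n = 4) in Ptch, 8.85 ± 3.69 (SD, n = 3) in NKP and 14.6 ± 9.26 (SD, n = 3) in AKP.

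The difference of NKP from Ptch in Ezh2 was -1.50 on the log2 scale (SE 0.651), a fitted level 0.355 times that of Ptch, and it did not pass (edgeR's quasi-likelihood test, adjusted p = 0.297). Ezh2 and Jarid2 were the members whose NKP libraries all lay below all Ptch libraries, and 15.9% of the genes tested were likewise without overlap between NKP and Ptch in either direction. AKP differed from Ptch by -0.78 (SE 0.631, adjusted p = 0.492) and from NKP by 0.72 (SE 0.687, adjusted p = 0.619) in Ezh2. A single library carried much of the AKP value: without AKP 1 it was -0.34. The choice of controls carried more, since against only the 2-month Ptch libraries it turned to 0.09 in AKP and was -0.63 in NKP.

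Among 4-month libraries alone, which leaves Ptch 1 and Ptch 2 as the controls, 3 of the 8 members were lower in NKP, beside 15.6% of 16490 genes tested that passed in this fit and 9.27% that passed lower. Ezh2 fell by 2.03 on the log2 scale (edgeR's quasi-likelihood test, adjusted p = 0.00166), Jarid2 by 0.40 (adjusted p = 0.0277) and Rbbp4 by 0.34 (adjusted p = 0.0382). In this fit the Ptch libraries had no Y-linked expression and summed proliferation marker levels of 371 and 374 CPM, and the NKP libraries had Y-linked expression and 7.46 to 51.3 CPM of those markers. The part of either in the result was not tested.

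Ezh2 and the proliferation markers ordered the libraries almost alike. The 8 libraries highest in the marker sum, from Ptch 1 and Ptch 2 through AKP 2, AKP 3, Ptch 3, Ptch 4 and NKP 3 to NKP 1, held the same ranks in Ezh2, and the lowest pair, AKP 1 and NKP 2, exchanged places. Mki67, carried by cycling cells, was 84.1, 80.4, 28.8 and 27.3 CPM in Ptch libraries 1 to 4, 0.654, 0.719 and 11.8 in NKP and 0.575, 49.1 and 38.8 in AKP. Atoh1, the transcription factor that defines granule neuron precursors, was 14.8, 16.4, 6.92 and 5.71 CPM in Ptch, 0, 0.221 and 3.67 in NKP and 0, 5.77 and 5.45 in AKP. The spread of Ezh2 inside each group therefore ran beside that of the markers, whichever group a library was in. All 10 proliferation markers and 7 of 8 precursor markers had a log2 fold change below 0 in NKP against Ptch (median -3.30 and -2.29), beside 47.7% of all genes tested. Of these lists 0 passed in edgeR, and 10 and 6 had an unadjusted p below 0.05, beside 17.0% of all genes tested. In AKP against Ptch all of both lists were below 0 (median -0.70 and -0.64), beside 52.3% of all genes tested. There 1 precursor marker passed lower, beside 2.30% of all genes tested. The part of dividing cells in the Ezh2 values was not tested.

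**Figure D2:**
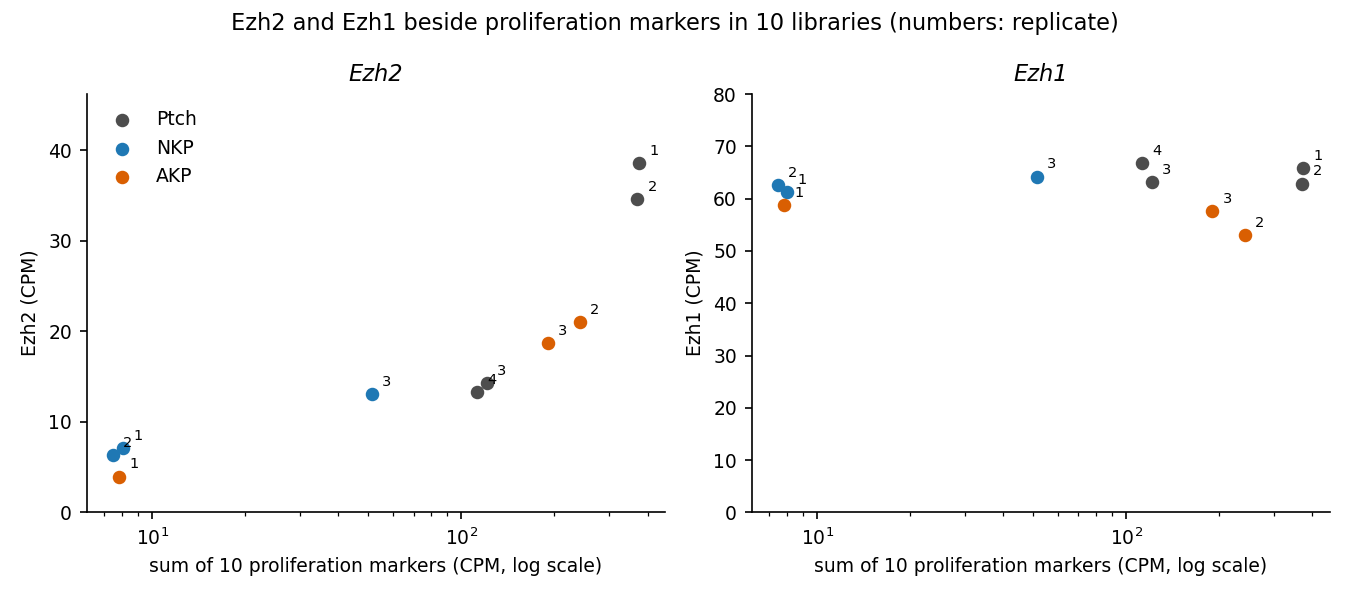
Level of Ezh2 (left) and Ezh1 (right) in CPM against the summed level of 10 proliferation markers (CPM, log scale), 1 point per library, coloured by group and marked with the replicate number. Ezh2 stands at 3.95 to 7.11 CPM in the libraries with 7.46 to 8.01 CPM of markers and at 34.6 to 38.6 in those with 371 to 374, while Ezh1 stays between 53.0 and 66.8.

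Ezh1 (chromosome 11, 101191115 to 101226463), the catalytic subunit of postmitotic cells, was steady where Ezh2 was not. Its level was 65.8, 62.9, 63.1 and 66.8 CPM in Ptch libraries 1 to 4, 61.2, 62.6 and 64.2 in NKP, and 58.8, 53.0 and 57.6 in AKP. All AKP libraries lay below all libraries of the other groups, by little. The difference was -0.20 from Ptch (SE 0.0769, adjusted p = 0.134) and -0.15 from NKP (SE 0.0820, adjusted p = 0.354), and NKP differed from Ptch by -0.04 (SE 0.0763, adjusted p = 0.800), none passing edgeR's quasi-likelihood test. Of the genes tested, 24.8% had no overlap between AKP and Ptch and 16.2% none between AKP and NKP, in either direction.

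The promoters of the paralogs are shown because their levels behaved so differently across these libraries. Each run covers 170 bases before to 30 after the RefSeq start site, 5′ to 3′ on the gene's strand, from RefSeq's GRCm38.p6 sequence. Capitals mark an E2F motif (TTTGGCGC or TTTCGCGC, letters bound by the E2F factors of the cell cycle) and CCAAT boxes (CCAAT, which reads ATTGG on the opposite strand), both searched on both strands.
Ezh2, chr6:47595001-47595200, minus strand: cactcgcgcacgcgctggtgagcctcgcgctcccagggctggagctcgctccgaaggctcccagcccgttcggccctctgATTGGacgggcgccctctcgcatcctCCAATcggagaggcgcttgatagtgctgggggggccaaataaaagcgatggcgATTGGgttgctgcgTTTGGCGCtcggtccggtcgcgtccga
Ezh1, chr11:101226434-101226633, minus strand: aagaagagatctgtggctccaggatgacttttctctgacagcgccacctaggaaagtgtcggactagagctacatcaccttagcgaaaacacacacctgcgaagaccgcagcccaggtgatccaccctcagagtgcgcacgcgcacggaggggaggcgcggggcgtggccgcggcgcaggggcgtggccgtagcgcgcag
The Ezh2 window holds 1 E2F motif, beginning 4 bases after the start site, and 3 CCAAT boxes, at 90, 64 and 11 bases before it. The Ezh1 window holds neither. The Ezh2 start site used lies inside the gene: its window ends at 47595200, short of the outer end of the gene at 47595270. The sequence around that outer end was not searched. All 8 members had a RefSeq window, 9 in all since Jarid2 has 2 start sites, and these E2F letters occurred in that of Ezh2 alone. Other forms of the E2F motif were not searched. The CHR motif (cell cycle genes homology region, TTTGAA or TTCGAA) was searched too, and no member's window held it, that of Ezh2 included. Over 32851 windows of this length, 0.560% held the E2F letters, 29.0% a CCAAT box and 12.6% the CHR letters. A CCAAT box also stood in the windows of Eed, Suz12, Rbbp4, Rbbp7 and 1 of the Jarid2 sites. Matches of letters are given as a description and not as sites of binding.

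The balance of the catalytic subunits was read as log2 CPM of Ezh2 minus log2 CPM of Ezh1 in each library. It was -0.77, -0.86, -2.14 and -2.33 in Ptch libraries 1 to 4, -3.09, -3.29 and -2.29 in NKP libraries 1 to 3, and -3.88, -1.33 and -1.62 in AKP libraries 1 to 3. In reads, Ptch 1 had 58.6 reads of Ezh2 for every 100 of Ezh1 and AKP 1 had 6.71. Per kilobase of the longest coding transcript (2787 bases for Ezh2 and 4207 for Ezh1) Ezh2 was below Ezh1 in every library, from 0.885 times in Ptch 1 to 0.101 times in AKP 1; with median transcript lengths the ratio in Ptch 1 was 1.03 and the other libraries stayed below 1. The group means of the log2 ratio were -1.52 ± 0.824 (SD, n = 4) in Ptch, -2.89 ± 0.529 (SD, n = 3) in NKP and -2.28 ± 1.39 (SD, n = 3) in AKP.

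The ratio did not separate the groups. The mean of NKP differed from that of Ptch by -1.37, with NKP 3 above Ptch 4, and a two-sided exact permutation test gave p = 0.114, adjusted to 0.343 over 3 comparisons, where 0.0571 is the smallest p that 3 against 4 libraries allow. AKP differed from Ptch by -0.75 (exact p = 0.514) and from NKP by 0.61 (exact p = 0.5, where 0.1 is the smallest possible). Without AKP 1, the difference of AKP from Ptch in the ratio was 0.05.

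**Figure D3:**
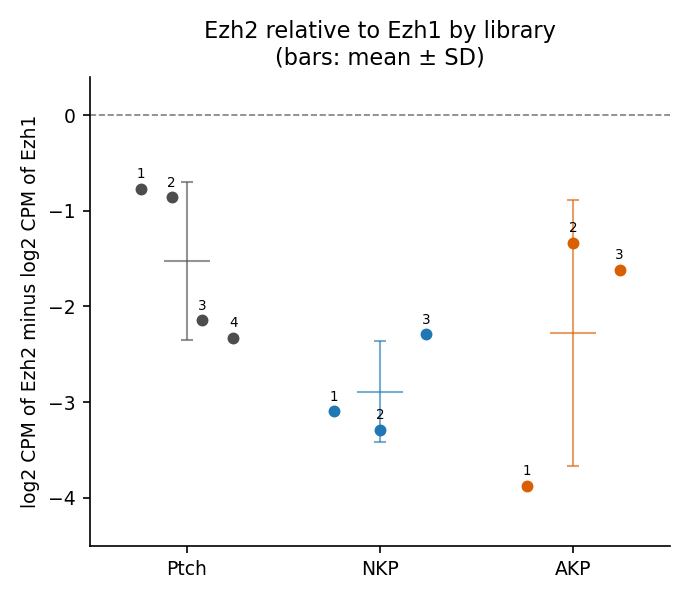
The log2 CPM of Ezh2 minus that of Ezh1 (vertical axis) in each library, by group, with the replicate number beside each point, bars for the mean and SD of a group and a dashed line where the reads are equal. All 10 libraries lie below 0, from -0.77 in Ptch 1 to -3.88 in AKP 1, and the groups overlap.

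Eed and Suz12, the partners without which neither catalytic subunit works, varied far less than Ezh2. Eed (chromosome 7, 89954654 to 89980976), which binds the methylated product, was 22.2, 23.9, 18.4 and 20.7 CPM in Ptch libraries 1 to 4, 18.5, 18.8 and 18.8 in NKP, and 16.8, 24.8 and 22.6 in AKP. The 4 highest libraries of Eed (AKP 2, Ptch 2, AKP 3 and Ptch 1) were the 4 highest of Ezh2, and AKP 1 was the lowest in both genes. The groups overlapped. NKP differed from Ptch in Eed by -0.19 (SE 0.139) and AKP by 0.01 (SE 0.138), with adjusted p = 0.501 and 0.985 in edgeR's quasi-likelihood test.

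Suz12 (chromosome 11, 79993106 to 80034123), the scaffold of the complex, was 46.2, 48.4, 49.4 and 46.1 CPM in Ptch libraries 1 to 4, 45.5, 54.3 and 42.9 in NKP, and 48.5, 41.6 and 45.7 in AKP. The NKP libraries held its highest level and AKP 2 its lowest, with no order by group. Its fitted difference from Ptch was 0.00 in NKP (SE 0.0981, adjusted p = 0.997) and -0.07 in AKP (SE 0.0987, adjusted p = 0.698). Across the 10 libraries the levels of Suz12 stayed within a 1.31-fold range while those of Ezh2 covered a 9.77-fold range.

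Jarid2 (chromosome 13, 44730774 to 44921643), an accessory subunit that binds nucleosomes and RNA and is itself a methylation target of PRC2, was the one member with every NKP and every AKP library below every Ptch library. Its level was 54.6, 55.6, 44.2 and 50.1 CPM in Ptch libraries 1 to 4, 39.6, 43.1 and 42.4 in NKP, and 43.1, 40.8 and 38.6 in AKP. Ptch 3 lay close to the highest tumour libraries, so the separation was narrow. Of the genes tested, 361 (2.31%) shared this arrangement.

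The difference of Jarid2 from Ptch was -0.29 in NKP (SE 0.0973, adjusted p = 0.218) and -0.32 in AKP (SE 0.0978, adjusted p = 0.0654), neither passing edgeR's quasi-likelihood test, and AKP differed from NKP by -0.03 (SE 0.104, adjusted p = 0.901). DESeq2 passed Jarid2 in AKP against Ptch (-0.32, adjusted p = 0.0305), beside 12.4% of all genes it tested, 5.63% lower. Over all 23 alternative settings of that comparison the adjusted p ran from 0.0305 to 0.673. The highest came with a correction for transcript length and GC content, which brought the difference to -0.09. The oligodendrocyte and red blood cell markers, higher in AKP, moved opposite to Jarid2, and the oligodendrocyte sum was higher in every NKP library too. The sum of 5 endothelial markers was 106 to 144 CPM in Ptch, 154 to 185 in NKP and 158 to 191 in AKP. Of these 5, 0 had a log2 fold change below 0 in either comparison with Ptch, beside 47.7% (NKP) and 52.3% (AKP) of all genes tested. The part of these 3 marker lists in the Jarid2 values was not tested.

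Rbbp4 and Rbbp7, histone chaperones that PRC2 shares with other chromatin complexes, did not separate the groups. Rbbp4 (chromosome 4, 129307100 to 129335370) was 223, 229, 182 and 178 CPM in Ptch libraries 1 to 4, 189, 178 and 169 in NKP, and 189, 250.0 and 217 in AKP. As for Ezh2, the 4-month Ptch pair and AKP 2 and AKP 3 were its 4 highest libraries. Rbbp4 differed from Ptch by -0.19 in NKP (SE 0.119) and 0.11 in AKP (SE 0.118), and AKP differed from NKP by 0.29 (SE 0.127, unadjusted p = 0.0382, adjusted p = 0.275 in edgeR's quasi-likelihood test).

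Rbbp7 (chromosome X, 162760372 to 162779090) was 145.1, 145.1, 125.4 and 127.2 CPM in Ptch libraries 1 to 4, 137, 125 and 125 in NKP, and 127, 140.0 and 135 in AKP. The highest pair was again Ptch 1 and Ptch 2, the libraries without Y-linked expression, and the part of that property in the level of this X-linked gene was not tested. Its differences were -0.07 (SE 0.0866) in NKP and -0.02 (SE 0.0866) in AKP against Ptch, with adjusted p = 0.680 and 0.926 in edgeR's quasi-likelihood test.

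Bmi1 (chromosome 2, 18677018 to 18686629), the PRC1 subunit that restrains the Cdkn2a locus, showed no order by group. Its level was 41.9, 57.6, 62.6 and 58.1 CPM in Ptch libraries 1 to 4, 39.8, 54.7 and 44.6 in NKP, and 49.4, 46.0 and 61.1 in AKP. Ptch 1, the highest library in Ezh2, was the second lowest in Bmi1. The differences in Bmi1 were -0.25 in NKP (SE 0.151, adjusted p = 0.417) and -0.08 in AKP (SE 0.151, adjusted p = 0.788) against Ptch, and 0.17 between AKP and NKP (SE 0.162, adjusted p = 0.611), none passing edgeR's quasi-likelihood test. Commd3 ends just upstream of Bmi1, and the library kit does not mark strand.

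**Figure D4:**
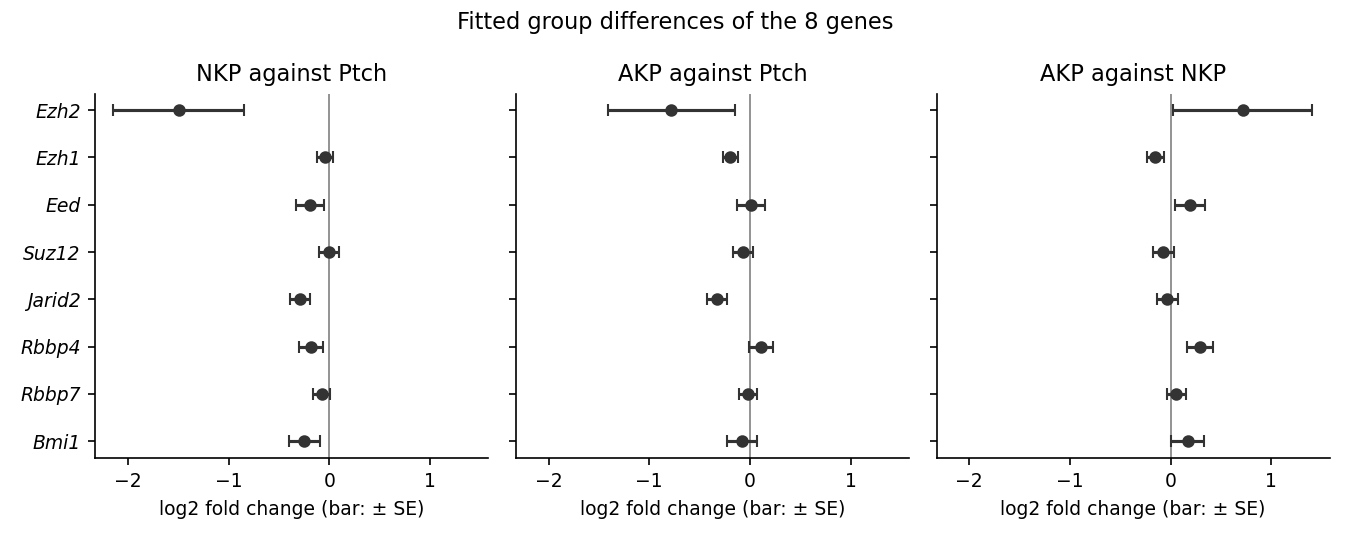
Fitted log2 fold change of each of the 8 genes (horizontal axis) in the 3 comparisons, with bars of 1 SE. The widest bars are those of Ezh2 (SE 0.631 to 0.687), and no gene passed the test in any panel.

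The genes whose profile over the 10 libraries was most like that of Ezh2 were not other members. Likeness was the root mean square difference of log2 CPM profiles, each centred on its own mean, and is a description. For Ezh2 the nearest genes were Cklf (0.177), Cd1d1 (0.207), Zfp57 (0.227), Pdzrn4 (0.238) and Mycl (0.238), beside a median of 1.02 over the genes tested. Cklf (1.07 to 9.30 CPM), Cd1d1 (0.411 to 5.85) and Pdzrn4 (0.995 to 7.39) were low, so the low end of their profiles rests on few reads. Zfp57 (2.96 to 21.9) and Mycl (6.82 to 45.0) were higher. The nearest member, Eed, ranked 1961 (0.847). A gene with no variation would stand at 0.992, so the measure weighs the size of the spread as well as the order of the libraries. For Ezh1 the nearest were Npepps, Fam234b, Fbxo21, Caskin1 and Qrich1 (0.0330 to 0.0360, beside a median of 0.248), and for Bmi1 they were Fmnl2, Mier3, Tram1, A930013F10Rik and Minar1 (0.0977 to 0.111, beside a median of 0.325).

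Other Polycomb genes, from lists of known subunits, passed rarely. Of 22 PRC1 genes other than Bmi1, all tested, 1 passed lower in AKP against Ptch, where 2.30% of all genes tested passed lower and 3.38% higher, and 0 passed in the other comparisons. At an unadjusted p below 0.05 they numbered 6 in NKP against Ptch, 6 in AKP against Ptch and 2 in AKP against NKP. The shares of all genes tested were 17.0%, 25.1% and 16.9%. The gene that passed was Phc3, a Polyhomeotic subunit of canonical PRC1, at 37.1, 34.0, 42.0 and 43.3 CPM in Ptch libraries 1 to 4, 29.8, 36.8 and 39.6 in NKP, and 27.9, 27.6 and 30.5 in AKP. The AKP libraries all lay below the Ptch ones, where 24.8% of all genes tested had no overlap in either direction. Phc3 fell by 0.45 on the log2 scale (SE 0.121, edgeR adjusted p = 0.0481), a call that held in 6 of 23 alternative settings. The median of the list was -0.20 in AKP against Ptch and -0.13 in NKP against Ptch.

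The PR-DUB complex removes the H2A ubiquitin that PRC1 places. Of its 8 genes, 1 passed lower in AKP against Ptch, beside 2.30% of all genes tested, and all 8 were below 0 there (median -0.39), beside 52.3% of all genes (median -0.02). Foxk1, a forkhead factor bound by the complex, was 33.1, 33.2, 35.6 and 36.0 CPM in Ptch libraries 1 to 4, 27.6, 29.2 and 36.1 in NKP, and 23.8, 22.7 and 24.2 in AKP, with all AKP libraries below all others. Of all genes tested, 24.8% had no overlap between AKP and Ptch and 16.2% none between AKP and NKP, in either direction. Foxk1 fell by 0.55 against Ptch (SE 0.108, edgeR adjusted p = 0.0220), and the call held in 13 of 23 settings. The call was lost among others without Ptch 1, Ptch 2, Ptch 4, AKP 2 or AKP 3. The part of the oligodendrocyte, red blood cell and endothelial markers in the Foxk1, Phc3 and other PR-DUB values was not tested.

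The accessory PRC2 list had 7 of 8 genes tested and none passing, with 1, 0 and 0 at an unadjusted p below 0.05 in the 3 comparisons. The shares of all genes tested below that p were 17.0%, 25.1% and 16.9%. Epop, a subunit linked to elongin, was 17.4, 14.2, 10.1 and 7.23 CPM in Ptch libraries 1 to 4, 6.95, 6.80 and 6.35 in NKP, and 6.74, 14.0 and 10.4 in AKP, with AKP 1 again beside NKP. Its difference in NKP was -0.86 (SE 0.297, edgeR adjusted p = 0.218). Phf19, a Polycomb-like protein that reads methylated lysine 36, differed between NKP and Ptch by -0.79 (SE 0.389, adjusted p = 0.313), and its homolog Phf1 differed between AKP and NKP by 0.14 (SE 0.0906, adjusted p = 0.417).

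The enzymes that erase the PRC2 mark did not pass either. Kdm6a (Utx), a partner of Kmt2d in the COMPASS-like complex, was 23.0, 26.4, 18.4 and 18.4 CPM in Ptch libraries 1 to 4, 17.2, 26.4 and 16.0 in NKP, and 16.8, 9.88 and 12.2 in AKP. Kdm6b (Jmjd3) was 34.9, 36.9, 34.1 and 30.2 CPM in Ptch, 18.5, 21.2 and 32.0 in NKP, and 20.6, 26.0 and 24.9 in AKP. Every AKP library lay below every Ptch library in both genes, and 24.8% of all genes tested had no overlap between these groups. The differences were -0.73 for Kdm6a (SE 0.224, edgeR adjusted p = 0.0704) and -0.51 for Kdm6b (SE 0.167, adjusted p = 0.0814). Within Ptch, the higher Kdm6a levels were those of Ptch 1 and Ptch 2, the libraries without Y-linked expression. NKP 2, which had Y-linked expression, also stood at 26.4 CPM. The part of that property in the Kdm6a values was not tested.

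The classical targets of Polycomb silencing, the Hox clusters and the Cdkn2a and Cdkn2b genes, were nearly silent in all groups. Of 41 such genes, 17 had no count in any library and 4 were tested. Their summed level was 2.54 to 5.04 CPM in Ptch, 3.19 to 4.64 in NKP, 4.19 in AKP 1 and 11.2 and 11.3 in AKP 2 and AKP 3. Hoxb5, a homeobox gene of posterior identity, stood at 0, 0.0517, 0.153 and 0.380 CPM in Ptch libraries 1 to 4, 0.491, 0.221 and 0.712 in NKP, and 0.493, 2.09 and 2.06 in AKP. Hoxb5 rose in AKP against Ptch by 3.33 on the log2 scale (SE 0.744, edgeR adjusted p = 0.0284). Its Ptch levels were so near 0 that the fitted fold is imprecise, and the call held in 9 of 19 settings. It was the 1 of the 4 tested genes that passed higher there, beside 3.38% of all genes tested. Cdkn2a, which encodes the cell cycle inhibitors p16Ink4a and Arf, was 1.15, 1.81, 1.17 and 0.824 CPM in Ptch, 0, 0.221 and 0.274 in NKP and 0, 1.01 and 0.958 in AKP. Its differences from Ptch did not pass (edgeR adjusted p = 0.218 in NKP and 0.459 in AKP).

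**Figure D5:**
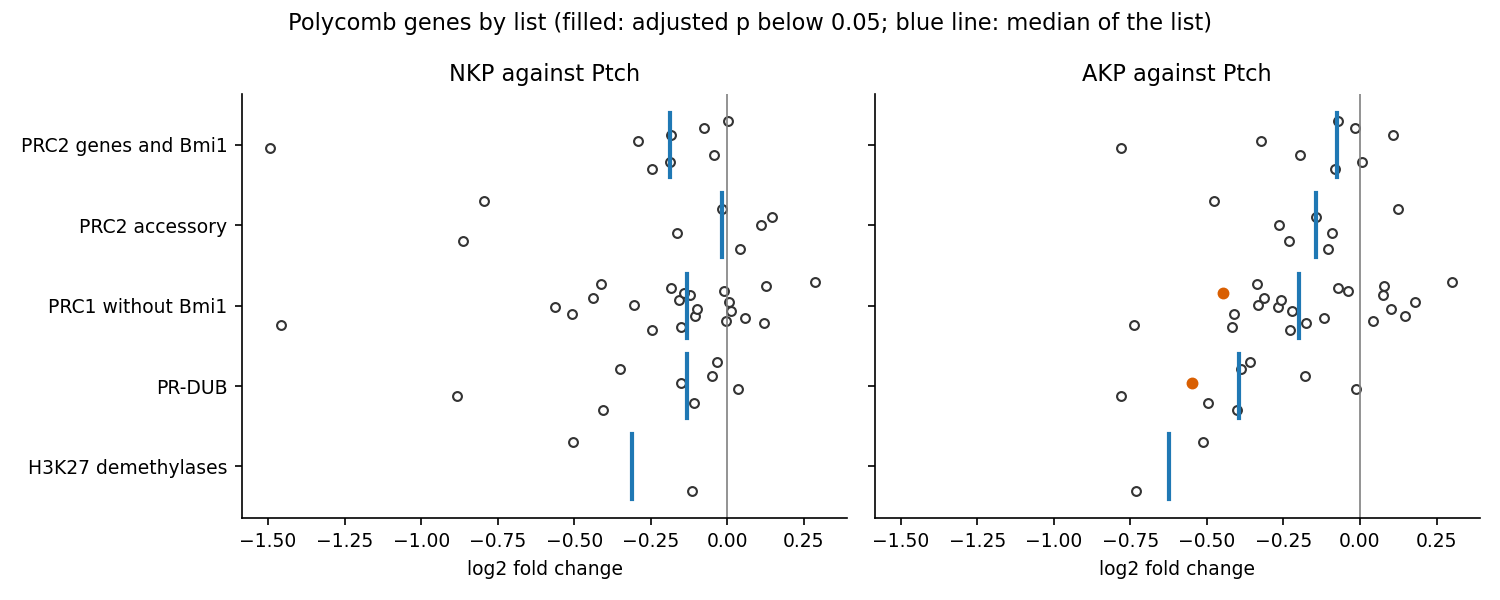
Log2 fold change of each tested gene (points, horizontal axis) of 5 Polycomb lists in NKP and in AKP against Ptch, with a blue line at each list's median and filled points where the adjusted p was below 0.05. The only filled points are Phc3 and Foxk1 in AKP, and the point at -1.50 among the PRC2 genes in NKP is Ezh2.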

How the data were processed

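Per the submitters' processing notes, reads were handled with Trim Galore, STAR and RSEM on GRCm38. What versions and annotation these were is not given in the sources used here. Deposited by the authors, the table holds whole numbers per gene symbol and library, taken as RSEM expected counts that were rounded, so rounding changed no value. Of 39769 symbols, 39754 (99.96%) matched RefSeq GRCm38.p6. Reads of overlapping genes cannot be told apart without strand.

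Genes were kept by edgeR's filterByExpr on the 3 groups (15617 genes), scaled by TMM and compared by the robust quasi-likelihood F test of edgeR 4.0.16 under R 4.3.3. All 10 libraries entered 1 fit with no covariate, and a gene passed at an adjusted p (Benjamini-Hochberg) below 0.05. The SE is the log2 fold change divided by the square root of F. The log2 ratio of Ezh2 to Ezh1 (prior count 1) was compared by a two-sided exact permutation test. Transcript lengths came from GENCODE's transcripts for the same build. The fit was tested on simulated data. Alternatives were RLE and upper quartile scaling, DESeq2 1.42.0, fits of only the groups compared, changed filters for low counts, covariates for age and for the sex label, libraries of the same age, a replicate block, a length and GC correction (lowess span 0.3) each library left out in turn, and the 4 libraries left out that did not match their sex label. Controls of 2 months only were added after seeing the data.

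The members and all lists were chosen with earlier results of these data known. The text names every member, any gene of another Polycomb list that passed (otherwise the 3 with the smallest p), Kmt2d, Ptch1, Mki67, Atoh1, Cdkn2a, Kdm6a and Kdm6b, and the 5 genes most like Ezh2, Ezh1 and Bmi1.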

Additional observations from a re-analysis of the deposited data

How the results depend on the processing

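The count of members that passed stayed at 0 except for 3 in NKP against Ptch among libraries of the same age and 1 in AKP against Ptch with DESeq2; with each library left out in turn it was 0 in every comparison. Counts over all genes moved far more. In NKP against Ptch (0) they were 406 with DESeq2, 933 with age as a covariate and 2575 among libraries of the same age, and 0 to 0 with 1 library left out. In AKP against Ptch (887) they were 1940 with DESeq2, 231 with the sex label as a covariate, 16 with the length and GC correction and 0 with the replicate block, among libraries of the same age, without the 4 libraries that did not match their sex label and with only the Ptch libraries of 2 months. Leaving out 1 library gave 0 (AKP 3) to 1459 (AKP 1), with 1 when Ptch 1, Ptch 2 or AKP 2 was left out, 183 for Ptch 4, 321 for Ptch 3 and 553 for NKP 2. With upper quartile scaling 741 of 994 called genes were higher, against 528 of 887 with TMM. In AKP against NKP (1) they were 230 with DESeq2, 419 among libraries of the same age and 0 with only the groups compared, the sex label, age or the replicate block in the fit, or without the 4 libraries, and 0 to 1364 (without AKP 1) with 1 left out. For the counts that moved, the cause was not tested.

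Sign changes fell mostly on differences near 0, with Ezh2 (-0.78) and its ratio to Ezh1 (-0.75) in AKP against Ptch as the exceptions, and none of these values passed. In NKP against Ptch, Suz12 was -0.0031 with the sex label, -0.015 with the replicate block, -0.069 with the length and GC correction, -0.013 with only 2-month Ptch libraries and -0.016, -0.012 and -0.11 without Ptch 1, Ptch 4 or NKP 2 (-0.11 to 0.072 over all libraries left out), and Rbbp7 was 0.022 with only 2-month Ptch libraries. In AKP against Ptch, Ezh2 was 0.093 with only 2-month Ptch libraries. Eed was -0.0034 without a filter, -0.014 with the replicate block, -0.092 without the 4 libraries, -0.12 with the length and GC correction and -0.058, -0.11 and -0.032 without Ptch 3, AKP 2 or AKP 3 (range to 0.15). Rbbp7 was 0.021 with upper quartile scaling, 0.0076 with age, 0.073 at the same age, 0.092 with only 2-month Ptch libraries and 0.025, 0.028 and 0.022 without Ptch 1, Ptch 2 or AKP 1 (range from -0.054). Bmi1 was 0.0049 without AKP 2 (range from -0.21), and the Ezh2 to Ezh1 log2 ratio 0.049 without AKP 1 (range from -1.22). In AKP against NKP, Suz12 was 0.0015 with the length and GC correction and 0.034 without NKP 2 (range from -0.13), Rbbp7 was -0.025 with that correction, and Jarid2 was 0.032 with age, 0.029 without the 4 libraries, 0.14 with that correction and 0.0075 without AKP 3 (range from -0.073).

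Replicate numbers are shared between groups. The deviations of same-numbered libraries had correlations of -0.33 to 0.34, and 4 of 10 libraries were closest to their own number. Ptch 4 has no same-numbered library in another group, so it could not match. With so few libraries in each group, this check cannot decide whether the numbers pair the libraries. With the replicate block the counts of called genes were 0 in each comparison and no member passed. Depth limits Ezh2 most among the members, with 48 reads in AKP 1.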

Other observations

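Beyond Foxk1, the other PR-DUB genes were looked at after their values were seen. In AKP against Ptch, Asxl1, Asxl2, Foxk2, Hcfc1 and Ogt each lay wholly lower in AKP than in Ptch, and 24.8% of the genes tested had no overlap between these groups in either direction. Ogt, the enzyme that adds N-acetylglucosamine to proteins, had the smallest adjusted p of these (edgeR, 0.0615), and Bap1, the ubiquitin hydrolase itself, had a mean of 121 CPM in AKP and 122 in Ptch. Y-linked expression was close to absent in Ptch 1 and Ptch 2 only, and the part of that property in these values was not tested.

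Cbx2, a chromodomain subunit of canonical PRC1 also picked after its values were seen, resembled Ezh2 in its arrangement. The Ptch libraries 1 to 4 had 14.9, 18.2, 9.42 and 9.70 CPM of it, the NKP libraries 4.09, 4.09 and 6.02, and the AKP libraries 3.62, 11.1 and 8.70. Its difference in NKP against Ptch was -1.46 (SE 0.366, edgeR adjusted p = 0.218).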
